A study of Homo sapiens with 12 samples.

Results

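The 3 libraries of DMSO-treated HCT116 cells, the vehicle-treated state before any TNF or inhibitor, are described here, with the genes that were expressed, those that were not, and the spread between the libraries. They were chosen by their labels, which name control replicates 1, 2 and 3, and make up 3 of the 12 libraries in the series. The cells, HCT116 from ATCC, had received 0.1% DMSO for 3 hours, with neither TNF nor Senexin B, an inhibitor of the Mediator kinases CDK8 and CDK19. The other 9 libraries carry TNF, Senexin B or both and were not compared. The labels call the 3 samples biological replicates, and the same cell line is their only source, so the spread given below is that between libraries of 1 line. Differences between the cultures and those from RNA or library preparation cannot be told apart in it.

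HCT116 is a human colorectal carcinoma line, used widely as a model of epithelial tumour cells with defective mismatch repair. Mediator is the large complex that carries signals from DNA-bound factors to RNA polymerase II, and its detachable kinase module holds CDK8 or CDK19 with cyclin C, MED12 and MED13 or their paralogs. NF-kB is a family of dimeric factors kept in the cytoplasm by IkB proteins. When a receptor such as that for TNF recruits its adaptors and the IKK complex, IkB is degraded, and the freed dimers switch on chemokine, cytokine and survival genes, among them those of their own inhibitors.

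Read counts were given for 56634 gene symbols and summed to 7315736, 8321910 and 8994809 in replicates 1, 2 and 3. Counts were scaled to a common library size (CPM), on which 1 CPM was 7.40 to 8.92 counts in a library. Levels of different genes are compared only in TPM, a scale that also divides by the exon length of the gene. Values are mean ± SD over the 3 replicates (n = 3). A gene was taken as on with at least 1 CPM in each library, as silent with at most 3 counts over all 3, and as low otherwise. A gene at 0 counts in all 3 may still have held up to 0.122 CPM, the limit that 3 counts set, and such limits cover counting error only. Replicate 1 stood apart from the other two: genes with long transcripts read higher in it, as described at the end, and the numbers of genes on are given with and without it where they differ.

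Of 19257 protein-coding symbols, 11492 were on (59.7%), 1742 were low and 6023 were silent (31.3%), of which 4611 had no count at all. Without replicate 1, 11572 were on and 6314 had at most 3 counts over the other two. Of the low genes, 484 reached 1 CPM in some of the libraries only, 264 in 1 of them and 220 in 2. Among long noncoding RNAs, 259 of 3487 were on (7.43%). Genes that were on had a median of 29.3 TPM, and most lay between 10 and 100 TPM (6688 genes), with 2622 from 1 to 10 TPM and 1937 from 100 to 1000 TPM. The 107 genes at 1000 TPM or more held 23.6% of the TPM of the protein-coding genes that were on. Between 960 and 988 genes made up 50% of the counts of a library, and 100 genes made up 17.7% to 18.3%.

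With the genes of cytosolic ribosomal proteins counted apart, the 25 most abundant messages ran from 2209 to 10034 TPM. By exon length HSP90AB1, a cytosolic chaperone, stood highest at 9334, 10236 and 10533 TPM in the 3 replicates. It was followed by ACTG1, cytoskeletal gamma actin, with 8696 ± 491 TPM. TMSB10, which binds actin monomers, had 6315 ± 168 TPM, HSP90AA1, the inducible HSP90 paralog, 6233 ± 56.0 TPM, and the elongation factor gene EEF1A1 6228 ± 255 TPM. The ranges of these last 3 genes overlapped, so their order is not fixed by these libraries. With the longest transcript as the length, ACTG1 had 8037 ± 448 TPM and HSP90AB1 7790 ± 478 TPM, so their order depends on the length used. TMSB10 then fell to 4400 ± 117 TPM, and NPM1, named below, rose to 4980 ± 53.9 TPM. GAPDH, ENO1 and LDHB, enzymes of glycolysis and lactate formation, reached 4978 ± 265, 2731 ± 118 and 2209 ± 43.5 TPM. HMGA1, an architectural chromatin protein of proliferating cells, had 3729 ± 145 TPM, and EZR, which links actin to the membrane of microvilli, had 2831 ± 55.6 TPM. Others of the 25 were FTL, a subunit of the iron store ferritin, at 4084 ± 52.6 TPM, PTMA, prothymosin alpha, at 3417 ± 106 TPM, NPM1, a nucleolar chaperone, at 3283 ± 33.6 TPM, the calcium-binding S100A6 at 3139.6 ± 152 TPM and ATP5B, of the mitochondrial ATP synthase, at 2541 ± 16.7 TPM. All 77 cytosolic ribosomal protein genes were on, with a median of 924.6 TPM and the highest, RPS12, at 5074 ± 26.8 TPM, and held 6.15% to 6.30% of the counts. The lowest were RPL17, RPS10 and RPL36A, at 70.2 ± 2.60, 30.2 ± 4.19 and 1.98 ± 0.635 TPM. RPL36A had only 14, 20 and 11 counts, and whether the counting lowered such values was not tested. The 18 housekeeping genes were on as well, from 36.3 ± 2.75 TPM for GUSB, a lysosomal enzyme, up to ACTG1. The 37 mitochondrially encoded symbols all stood at 0 counts, so nothing can be said of them here.

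**Figure D1:**
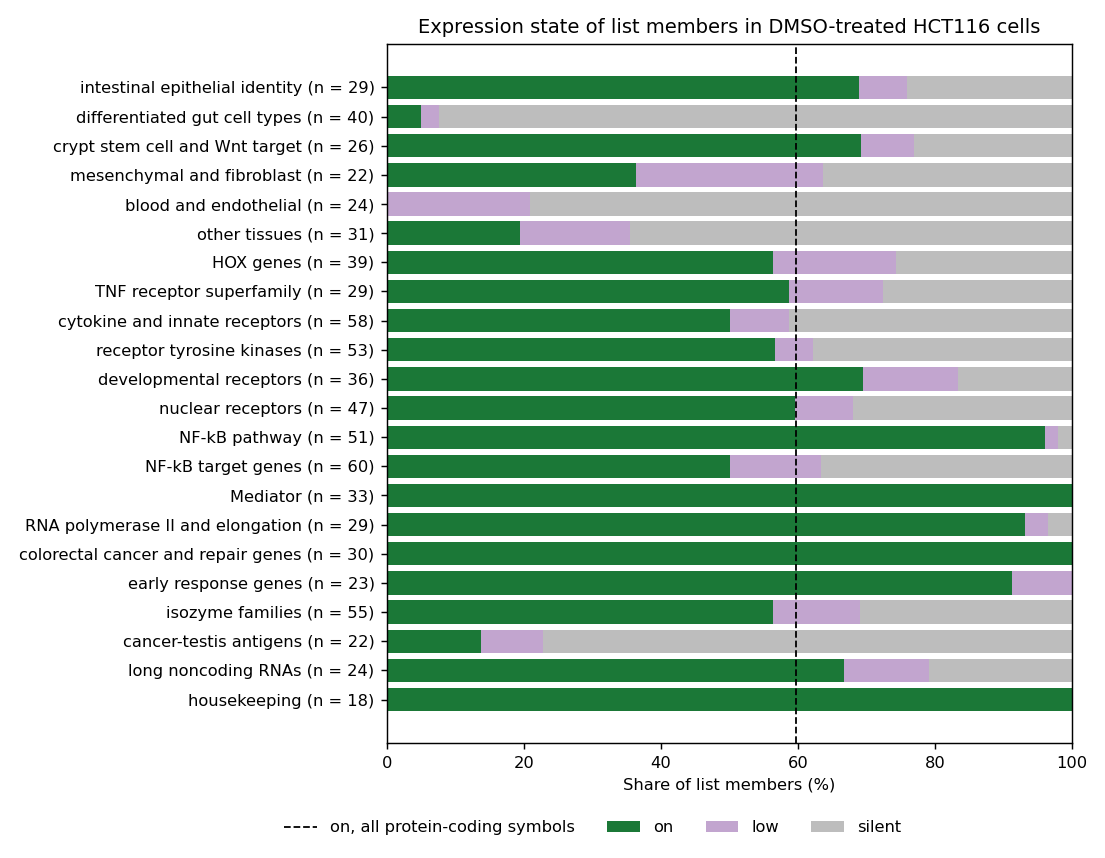
Share of the members of each gene list that were on (at least 1 CPM in each of the 3 control libraries), low or silent (at most 3 counts over the 3), with the number of members in brackets. The dashed line is the share on among all protein-coding symbols, 59.7%. Mediator, housekeeping and colorectal cancer genes fill the bar, while blood and endothelial genes have no member on.

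Of 17 structural markers of epithelia 15 were on, against 59.7% of all protein-coding symbols. The list was written with earlier results of these data known, so it is a description and no independent check of identity. KRT8 and KRT18, the keratin pair of simple epithelia, had 1382, 1407 and 1450.2 TPM and 1198, 1315 and 1373 TPM in replicates 1, 2 and 3. With the longest transcript in place of all exons as the length, KRT8 had 2367 ± 55.3 TPM. KRT19, another simple epithelial keratin, had 1221 ± 21.8 TPM and the adhesion molecule EPCAM 620.1 ± 20.1 TPM. The levels of the tight junction genes CLDN7, CLDN4 and TJP1 were 169.8 ± 4.16, 107 ± 1.60 and 77.5 ± 3.09 TPM, and that of CDH1, the epithelial cadherin, was 42.4 ± 3.37 TPM. Splicing and transcription factors of epithelia were on too, with ESRP1 at 115 ± 2.403 TPM and GRHL2 at 20.04 ± 1.84 TPM. The exceptions were KRT20, a keratin of mature gut cells, at 8, 6 and 8 counts, and VIL1, the villin of microvilli, at 0 counts, although only 56.0% of the exon bases of VIL1 are free of exons of other genes.

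Genes that mark the gut in particular were split, with 5 of 12 on (41.7%, against 59.7% of all protein-coding symbols), 1 low and 6 silent. KLF5, a factor of crypt cells, led with 83.3 ± 6.29 TPM, and CDX2, the homeobox factor of intestinal identity, had 19.3, 20.5 and 19.7 TPM in the 3 replicates. GATA6 and HNF4A, further factors of gut epithelium, had 5.85 ± 0.960 and 4.11 ± 0.855 TPM. The CDX2 paralog CDX1 stood at 0 counts, as did GATA4, the intestinal cadherin CDH17 and LGALS4, a galectin of gut epithelium. GPA33, a colon surface antigen, had 3 counts over the 3 libraries. With 5 of the 12 gut markers at no count, the markers of gut identity were present only in part.

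Genes of mature gut cells were silent almost throughout, with 2 of 40 on (5%, against 59.7% of all protein-coding symbols). CA2, the carbonic anhydrase of surface colonocytes, was the exception among 18 absorptive genes at 113, 105 and 99.1 TPM, with no overlap with any other of them. Among the others SI, ALPI, FABP1, FABP2, CEACAM5 and CEACAM6 had no count. Of 14 genes of goblet, Paneth and tuft cells only FCGBP, a mucus protein, was on, at 0.720 ± 0.236 TPM, and it lay below 2 CPM in replicates 2 and 3 and below 1 TPM in all 3. The mucin MUC2, the trefoil factor TFF3 and both Paneth defensins stood at 0. All 8 enteroendocrine genes were silent, and 6 of them had no count.

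Of 14 Wnt target genes 11 were on (78.6%), and of 12 genes of crypt stem cells 7 (58.3%), the latter close to the 59.7% of all protein-coding symbols. CCND1, the D-type cyclin, DKK1, a secreted Wnt inhibitor, and MYC had 752 ± 11.8, 725 ± 12.2 and 589 ± 18.2 TPM. CD44, a surface receptor for hyaluronan, had 307 ± 9.19 TPM and SOX9 136 ± 2.57 TPM. The feedback genes RNF43, ZNRF3, NOTUM and AXIN2, which dampen Wnt signals, lay lower, at 40.8, 20.1, 13.2 and 11.2 TPM. In contrast, the stem cell genes LGR5, ASCL2, OLFM4 and SMOC2 had no count in any library, and neither did LEF1, although its relatives TCF7L2, TCF7 and TCF7L1 were on at 86.3, 14.6 and 14.1 TPM. TNFRSF19, a Wnt-regulated receptor of the crypt, passed 1 CPM in 2 libraries only, with 6, 18 and 22 counts, and counts as on without replicate 1.

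Among markers of other cells, 8 of 22 mesenchymal and fibroblast genes were on (36.4%, under the 59.7% of all protein-coding symbols). S100A4, a calcium-binding protein of motile cells, was high at 995 ± 8.39 TPM. VIM, the intermediate filament of mesenchyme, was barely on at 3.17 ± 0.461 TPM, with ZEB1 at 3.41 ± 0.582 TPM and FN1 at 3.47 ± 0.353 TPM, while CDH2 and TWIST2 had no count. SNAI1, a repressor of CDH1, was on at 24.5 ± 1.44 TPM. Of 12 fibroblast or muscle genes 3 were on (25%, against 59.7% of all protein-coding symbols), at up to 10.7 TPM. None of the 24 blood and endothelial genes was on. PTPRC, CD3D, SPI1, HBB, CDH5 and TEK had no count, and the highest of the list, CD8A, had 0, 4 and 6 counts. CD68 also had no count, but only 14.2% of its exon bases are free of other genes. Of 31 genes of other tissues 6 were on (19.4%), at up to 17.4 TPM. Of these GATA3, PAX8, MITF, MAP2 and SERPINA1 lay between 1.47 and 2.58 TPM. The highest, at 17.4 TPM, belonged to the markers of lung, thyroid, prostate, breast, skin or kidney. In bulk RNA, few cells of a type and little RNA per cell cannot be told apart.

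HOX genes, which set position along the body axis, were on in 22 of 39 cases (56.4%, near the 59.7% of all protein-coding symbols), with shares that varied between clusters. The HOXA cluster had 9 of 11 on and the HOXB cluster 8 of 10, but the HOXC cluster 4 of 9 and the HOXD cluster 1 of 9. The highest were HOXB7 at 145, 138 and 131 TPM, HOXB8 at 114, 105 and 99.6 TPM and HOXA9 at 87.0, 86.9 and 81.4 TPM, whose ranges did not overlap. HOXB13 and HOXA13, the most posterior of their clusters, were on at 10.5 ± 1.55 and 6.03 ± 0.668 TPM. HOXD8 was the one active HOXD gene at 5.28 ± 1.22 TPM, and HOXD3, HOXD10, HOXD12 and HOXD13 had no count.

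**Figure D2:**
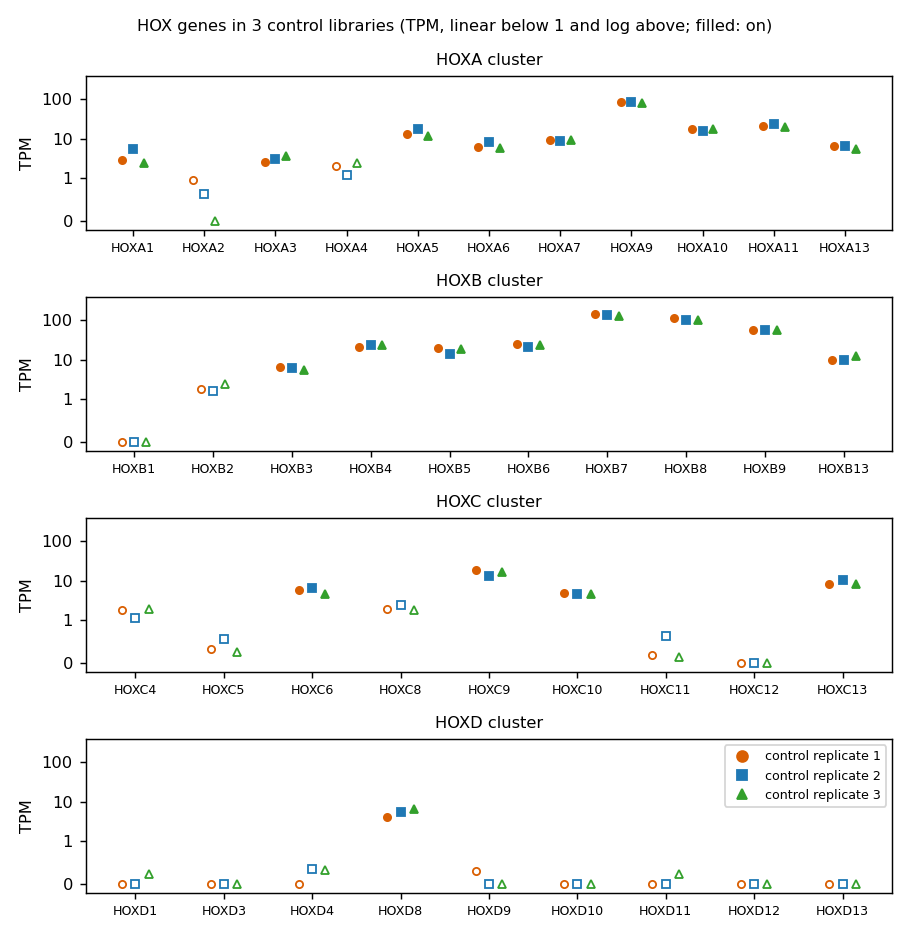
TPM of each HOX gene in the 3 control libraries, by cluster, on an axis that is linear below 1 TPM and logarithmic above. Filled symbols are genes that were on, open symbols low or silent ones. HOXB7 to HOXB9 and HOXA9 stand highest, and HOXD8 is the only filled gene of its cluster.

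Of the genes for the receptors of TNF itself, TNFRSF1A was on and TNFRSF1B was low. TNFRSF1A, the gene of TNFR1, had 85.4, 89.5 and 95.8 TPM in the 3 replicates, from 585, 705 and 817 counts. TNFRSF1B, the gene of TNFR2, had 3, 1 and 1 counts, or 0.242 ± 0.194 TPM. TNFRSF1A lay far above TNFRSF1B in every library. Across the superfamily 17 of 29 members were on, close to the 59.7% of all protein-coding symbols, and 18 without replicate 1.

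All 5 death receptor genes were on. TNFRSF10B, the DR5 receptor for TRAIL, had 149.7 ± 5.95 TPM, TNFRSF21 (DR6) 129 ± 3.07 TPM and TNFRSF10A (DR4) 104 ± 5.79 TPM, with FAS lower at 19.1 ± 0.305 TPM. A decoy for TRAIL, TNFRSF10D, stood at 123 ± 2.29 TPM, between DR4 and DR6. TNFSF10, the gene of TRAIL itself, had no count. The highest member of the superfamily was TNFRSF12A, the receptor for TWEAK, at 361, 373 and 356 TPM. LTBR, the lymphotoxin receptor, TNFRSF18 (GITR) and CD40 had 76.5 ± 3.29, 67.0 ± 3.20 and 29.8 ± 1.84 TPM, and LTBR had 144 ± 6.05 TPM by its longest transcript. Of the receptors known from lymphocytes, TNFRSF4, TNFRSF13B and TNFRSF17 had no count, but TNFRSF13C, the BAFF receptor of B cells, was on at 2.98 ± 0.466 TPM from 17, 23 and 29 counts.

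Of 58 cytokine and innate receptor genes 29 were on (50%, against 59.7% of all protein-coding symbols), and 30 without replicate 1. Receptors for interleukins were on in 17 of 24 cases and those for interferons in 5 of 5. IFNGR2, IFNGR1 and IFNAR1, chains for interferon gamma and type I interferons, had 78.2 ± 6.59, 45.1 ± 0.994 and 43.5 ± 1.51 TPM. IL13RA1, IL27RA and OSMR headed the interleukin and related receptors at 49.8, 49.6 and 47.1 TPM, and their ranges overlapped. IL6ST, the shared signalling chain of the IL6 family, had 29.1 ± 2.54 TPM, and IL1R1, which binds interleukin 1, 7.26 ± 0.903 TPM. The lymphocyte chains IL2RA, IL2RG and IL7R had no count. No chemokine receptor of 14 was on: CXCR4, the receptor for CXCL12, had 4, 4 and 1 counts and 8 of the 14 had none. Of 15 innate sensors 7 were on, led by TMEM173 (STING) at 15.8 ± 1.39 TPM and the RNA sensor DDX58 (RIG-I) at 11.7 ± 0.631 TPM. MB21D1 (cGAS), which makes the messenger that STING senses, had 2 counts in all. Among Toll-like receptors TLR6 and TLR3 were on, at 4.39 ± 0.764 and 2.33 ± 0.393 TPM, and TLR2, TLR4, TLR7 and TLR8 had no count.

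Receptor tyrosine kinase genes were on in 30 of 53 cases (56.6%), a share near the 59.7% of all protein-coding symbols. EPHA2, an ephrin receptor, and MET, the receptor for HGF, stood highest at 343, 337 and 353 TPM and 326, 315 and 313 TPM. Within the ERBB family EGFR had 46.2, 36.9 and 34.4 TPM and ERBB2 39.1, 37.6 and 39.6 TPM, which overlapped, ERBB3 was lower at 16.1 ± 1.41 TPM, and ERBB4 had 1 count. EGFR was higher in replicate 1 than in both others. AXL and DDR1, the latter a receptor for collagen, had 109 ± 4.81 and 85.4 ± 1.95 TPM, with 131 ± 2.92 TPM for DDR1 by its longest transcript. All 4 FGFR genes were on, FGFR4 highest at 63.5 ± 2.15 TPM and FGFR2 lowest at 12.0 ± 0.770 TPM. The vascular and stromal receptors FLT1, FLT4, TEK, TIE1 and PDGFRA had no count, and KIT had 1.

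Developmental receptors were on in 25 of 36 cases (69.4%, against 59.7% of all protein-coding symbols). FZD6 led the Wnt receptors at 91.2 ± 6.22 TPM, and the co-receptors LRP5 and LRP6 had 53.6 ± 3.24 and 27.7 ± 2.57 TPM. TGFBR2 and TGFBR1, the pair for TGF-beta, had 44.5 ± 4.09 and 37.5 ± 1.01 TPM. NOTCH2, NOTCH1 and NOTCH3 had 42.0 ± 3.96, 27.9 ± 2.83 and 9.30 ± 1.88 TPM. Of 47 nuclear receptor genes 28 were on (59.6%), the share of protein-coding symbols at large. The glucocorticoid receptor NR3C1 had 12.7, 12.9 and 12.7 TPM, and the receptors ESR1 and PGR, for estrogen and progesterone, had no count. The orphan receptor NR2F6 and its paralogs NR2F1 and NR2F2 were high, at 129 ± 5.67, 104 ± 4.08 and 72.0 ± 1.99 TPM. Of those with known ligands, PPARD and RARG led at 57.4 ± 2.01 and 50.2 ± 3.88 TPM, and VDR, the vitamin D receptor, had 25.5 ± 2.07 TPM.

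The machinery of NF-kB was expressed before treatment: 49 of 51 pathway genes were on (96.1%, against 59.7% of all protein-coding symbols), and 50 without replicate 1. The exceptions were TRAF1, an adaptor that is itself a target of NF-kB, with 5, 9 and 17 counts, and TNIP3, which binds A20, with none.

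All 5 subunit genes were on. NFKB2, the p100 precursor, had 71.8, 72.5 and 69.8 TPM, and RELA, the main activating subunit, had 61.5, 70.1 and 68.0 TPM. The ranges of these 2 overlapped by a narrow margin, and NFKB1, the p105 precursor, lay below both at 50.8, 53.0 and 52.4 TPM. With the longest transcript as the length, RELA lay above NFKB2 without overlap, at 79.6 and 65.3 TPM. RELB, the partner of p100, stood at 16.8, 11.9 and 15.6 TPM. REL, prominent in lymphocytes, was lowest at 4.30, 3.47 and 3.10 TPM, and RELA exceeded it 14.3- to 21.9-fold in single libraries.

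The genes of the IkB family, inhibitors and co-regulators, spanned a wide range with no overlap between neighbours in their order. NFKBIB (IkB beta) stood highest at 114, 109 and 116 TPM. NFKBIA (IkB alpha), the inhibitor that NF-kB resynthesises, had 45.8, 45.8 and 45.7 TPM, nearly the same level in each library. NFKBIE, BCL3 and NFKBID had 30.3 ± 3.87, 13.1 ± 0.323 and 6.15 ± 0.922 TPM. NFKBIZ, a nuclear IkB protein that is inducible in other cells, was lowest at 2.18, 2.07 and 2.86 TPM.

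All 10 genes of the IKK and TAK1 complexes were on. CHUK (IKK alpha) had 85.9, 91.8 and 86.0 TPM, whereas IKBKB (IKK beta) had 7.69, 7.19 and 6.89 TPM, or 11.4 ± 0.648 TPM by its longest transcript, and the scaffold IKBKG (NEMO) 5.30, 9.22 and 7.58 TPM. TBK1, a kinase related to IKK, and MAP3K7 (TAK1), which activates IKK, had 71.1 ± 3.28 and 45.7 ± 3.07 TPM, and TAB2, which ties TAK1 to ubiquitin chains, 74.4 ± 2.85 TPM. Adaptors at the receptors were on in 19 of 20 cases. IRAK1, a kinase of interleukin 1 and Toll-like receptor complexes, stood apart at 240.1, 237 and 255 TPM. The TNF receptor adaptors RIPK1, TRAF2, FADD and TRADD had 46.6, 40.8, 31.9 and 15.0 TPM. Of the ubiquitin ligases BIRC2 and BIRC3 (cIAP1 and cIAP2), the first had 48.0 ± 2.75 TPM and the other, a target of NF-kB, 1.84 ± 0.767 TPM.

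Brakes on the pathway were on in 9 of 10 cases. By exon length RNF11 and TNIP2 led at 125 ± 6.75 and 77.3 ± 2.25 TPM. By the longest transcript TAX1BP1, at 84.4 TPM, lay above TNIP2, at 72.1 TPM, without overlap. OTULIN, which cuts linear ubiquitin chains, had 23.4 ± 0.738 TPM and CYLD 7.03 ± 0.531 TPM. TNFAIP3 (A20), the inducible ubiquitin editor, was the lowest of those that were on, at 3.24, 3.52 and 2.69 TPM from 28, 35 and 29 counts.

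Target genes of NF-kB were on in 30 of 60 cases (50%, against 59.7% of all protein-coding symbols). Surface and antigen presentation genes were on in 9 of 11 cases (81.8%) and regulators and survival factors in 15 of 19 (78.9%), but chemokines in 1 of 13 (7.69%) and cytokines or TNF ligands in 5 of 17 (29.4%). CXCL16, a membrane-bound chemokine, was the one chemokine on, at 89.5, 93.3 and 106 TPM. CXCL8 (interleukin 8) had 1, 6 and 6 counts in replicates 1, 2 and 3, CXCL1 5, 1 and 3, CXCL2 4, 1 and 1 and CXCL3 4, 2 and 1. At so few counts the level in a single library is uncertain, and pooled over the 3 CXCL8 had a level of 0.528 CPM with an exact 95% Poisson interval of 0.281 to 0.903 CPM. CCL20, a chemokine of mucosal surfaces, had 1 count in all. CXCL10, CXCL5, CCL2 and CCL5 had none, nor did the cytokine genes TNF, IL6, IL1B, CSF2 and CSF3.

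Some secreted factors were present. LIF, a cytokine of the IL6 family, had 79.2, 86.4 and 87.0 TPM and IL18 62.9, 59.6 and 51.8 TPM, and IL12A, IL32 and CSF1 were on between 2.68 and 5.84 TPM. IL23A reached 1 CPM in 1 library only, with 7, 10 and 5 counts. The survival and stress genes IER3, BCL2L1 and SOD2 were well expressed at 716 ± 34.4, 278 ± 19.9 and 42.3 ± 0.281 TPM. So were the genes of antigen presentation HLA-C and HLA-B, at 469 ± 6.28 and 165 ± 5.12 TPM, though reads shared by these similar genes make each value uncertain. ICAM1, the adhesion molecule, was low among the active targets at 5.02 ± 0.310 TPM, and VCAM1 and SELE had no count.

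**Figure D3:**
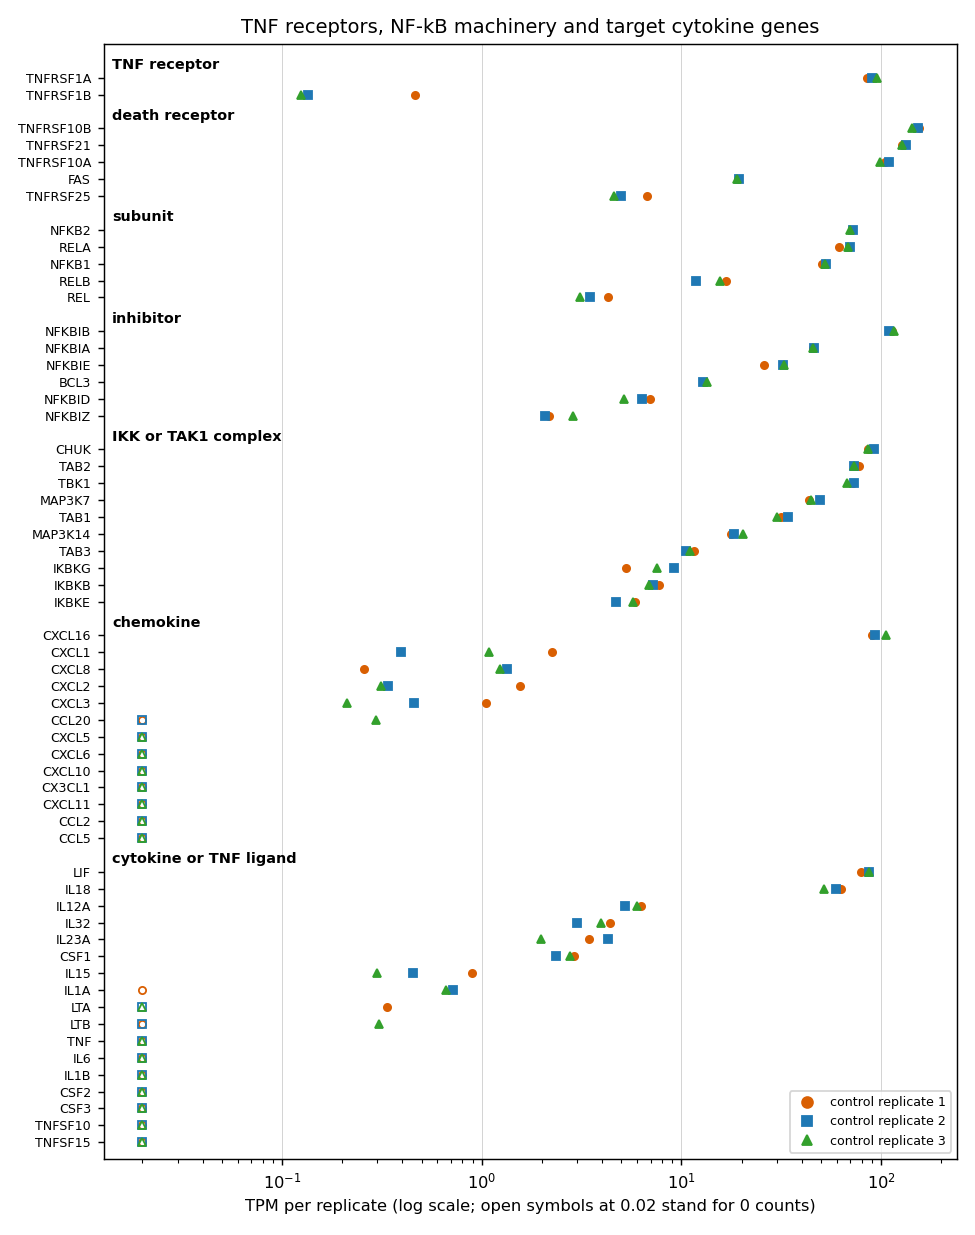
TPM in each control library, on a log axis, of TNF and death receptor genes, NF-kB subunits, IkB family genes (headed inhibitor) and kinase complexes. Target chemokines, cytokines and TNF ligands are shown as well. Open symbols at the left edge stand for 0 counts. The subunits, IkB family genes and kinases lie above 1 TPM in every library, while most chemokines and cytokines lie at or near 0.

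Promoter sequences from RefSeq (GRCh38.p14) were matched for 14797 of the protein-coding symbols, each window running from 250 bases before to 50 bases after the start. The kB consensus, searched on both strands, was found in 13.1% of windows of genes that were on, 15.2% of low and 10.1% of silent ones, and in 12.4% of all. Among NF-kB targets it was in 12 of 22 windows of genes that were on and in 9 of 17 of silent ones. The 4 stretches before the start printed here show a match beside each state, the matching bases in capitals: NFKBIA at chr14:35404750-35404869 on the minus strand and, on the plus strand, CXCL1 at chr4:73869273-73869392, CCL20 at chr2:227813722-227813841 and IL6 at chr7:22727080-22727146. NFKBIA was on, CXCL1 was low, and CCL20 and IL6 were silent. In CXCL1 the capitals hold 2 overlapping matches. The matches are letters in a window and say nothing of binding.
NFKBIA: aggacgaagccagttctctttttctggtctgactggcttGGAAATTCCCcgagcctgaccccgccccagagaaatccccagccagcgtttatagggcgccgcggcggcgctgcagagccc
CXCL1: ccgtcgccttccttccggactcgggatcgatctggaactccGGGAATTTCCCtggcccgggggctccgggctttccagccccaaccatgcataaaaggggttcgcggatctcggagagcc
CCL20: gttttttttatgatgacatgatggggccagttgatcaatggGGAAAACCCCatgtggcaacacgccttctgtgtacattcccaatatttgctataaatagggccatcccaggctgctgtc
IL6: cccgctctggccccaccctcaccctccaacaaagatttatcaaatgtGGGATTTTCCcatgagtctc

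Base composition went with state. The ratio of observed to expected CG dinucleotides in the window was at least 0.6 in 85.9% of genes that were on, 50.3% of low genes and 30.8% of silent ones, and in 66.8% of all windows. TATAAA, searched on both strands, ran the other way, at 4.90%, 10.5% and 18.5%, and 9.33% of all. All 25 Mediator windows passed 0.6, whereas none of the 17 silent NF-kB targets did. The stretches before the starts of CDK8, on and in a CG-rich window, and FABP1, the fatty acid binding protein of enterocytes, silent, show the contrast. CG dinucleotides are in capitals, 19 in the 200 bases of CDK8 (chr13:26253929-26254128, plus strand) and 1 in the 146 bases of FABP1 (chr2:88128117-88128262, minus strand). The whole windows behind the ratios hold 23 and 7. The rule was not general, since the KRT8 window had a ratio of 0.11 and KRT8 was among the genes over 1000 TPM. Of the windows of intestinal epithelial identity genes that were on, 5 of 12 reached 0.6. Silent HOX genes reached it in 6 of 8 windows and silent receptor tyrosine kinase genes in 12 of 19. Those that were on did so in 8 of 8 and 22 of 27.
CDK8: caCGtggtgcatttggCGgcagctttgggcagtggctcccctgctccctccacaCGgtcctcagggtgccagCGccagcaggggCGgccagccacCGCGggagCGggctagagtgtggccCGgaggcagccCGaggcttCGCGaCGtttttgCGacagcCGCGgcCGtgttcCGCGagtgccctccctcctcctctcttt
FABP1: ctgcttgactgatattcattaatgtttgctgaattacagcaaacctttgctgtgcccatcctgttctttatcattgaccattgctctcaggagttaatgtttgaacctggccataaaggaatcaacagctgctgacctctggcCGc

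All 33 Mediator genes were on, with and without replicate 1, against 59.7% of all protein-coding symbols. Their median was 36.5 TPM, beside 29.3 TPM for all protein-coding genes that were on, and their summed level was 1471 ± 9.51 TPM.

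In the kinase module MED13, which tethers the module to the core, and CCNC, cyclin C, stood highest at 94.3, 84.8 and 84.2 TPM and 84.6, 87.1 and 79.95 TPM in the 3 replicates, with overlapping ranges. CDK8 had 49.9, 51.4 and 55.3 TPM and its paralog CDK19 13.8, 14.4 and 12.5 TPM. The difference was 38.7 ± 3.67 TPM, and CDK8 exceeded CDK19 3.58- to 4.44-fold in single libraries. MED12, which activates the kinase, had 25.7, 19.6 and 22.4 TPM and MED12L 2.04, 1.89 and 1.71 TPM, a ratio of 10.4 to 13.1. MED13L stood at 29.8, 24.6 and 24.9 TPM, so that MED13 exceeded it 3.17- to 3.44-fold. With the longest transcript as the length, the MED13 ratio fell to a range of 1.5 to 1.63 with MED13L at 47.1 ± 5.18 TPM, while CDK8 remained 3.45- to 4.28-fold above CDK19. CCNC, at 136 ± 6.02 TPM, then lay above MED13 without overlap. MED13, MED13L and MED12 were highest in replicate 1, and the module's median ratio of replicate 1 to the others was 1.08, beside a median longest transcript of 6977 bases, the longest of the 4 modules. Whether the length of their transcripts had a part in this was not tested.

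In the head, which contacts the polymerase, the 10 genes ran from MED22 at 18.9 ± 1.04 TPM to MED30 at 58.0, 46.9 and 65.2 TPM, which varied most of them, with MED18 and MED29 overlapping it at 56.5 ± 3.88 and 55.5 ± 3.86 TPM. In the middle MED1, the docking subunit for nuclear receptors, was the highest Mediator gene by exon length at 115, 118 and 113 TPM, followed by MED4 at 102, 103 and 97.5 TPM. MED26, which links Mediator to elongation factors, was lowest there at 8.66, 7.44 and 9.07 TPM, and no neighbours in the order of the middle overlapped by exon length. In the tail, the target of many activators, MED24 led at 82.9 ± 1.30 TPM and MED23 was lowest at 22.98 ± 2.61 TPM. MED14, the backbone of the complex, and MED15 had 42.0 ± 0.659 and 28.2 ± 0.394 TPM. Their order turned with the longest transcript as the length, at 35.4 ± 0.590 TPM for MED14 and 43.4 ± 0.652 TPM for MED15, without overlap. MED12L was thus the only one of the 33 genes under 5 TPM.

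**Figure D4:**
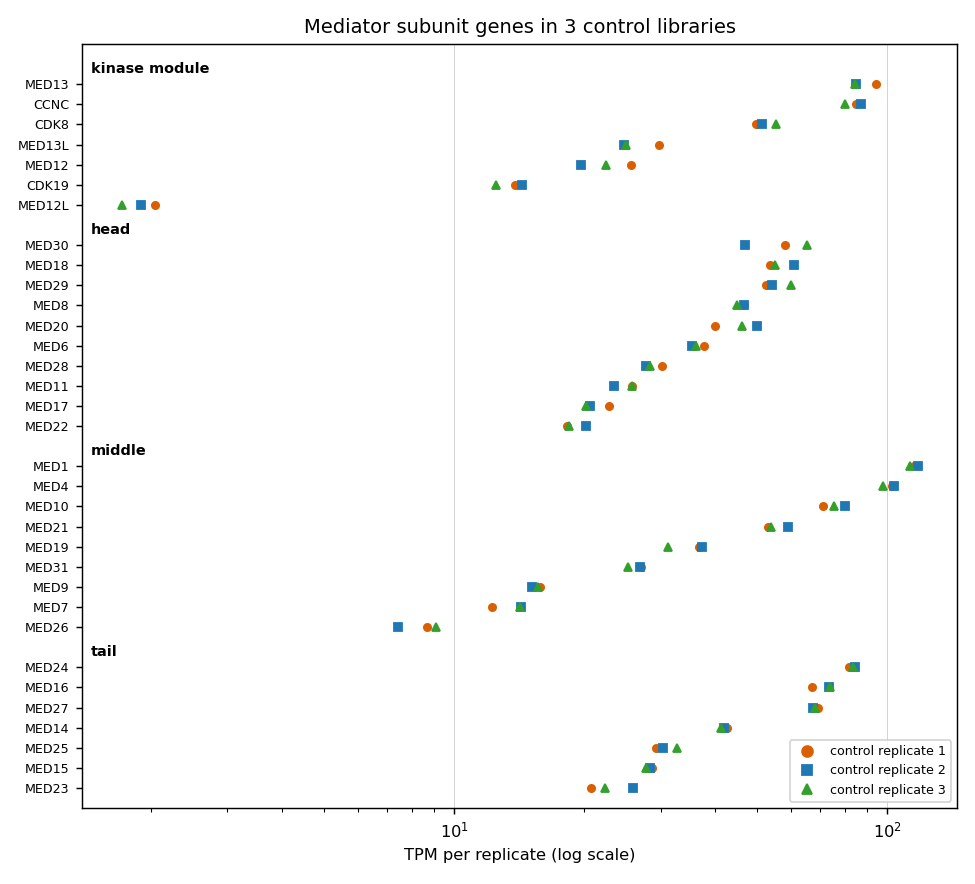
TPM of the 33 Mediator genes in each control library, by module, on a log axis. The 3 symbols of a gene mostly lie closer together than genes of a module do, and CDK8 and MED12 lie to the right of CDK19 and MED12L in every library.

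Partners of Mediator were mostly on, against 59.7% of all protein-coding symbols. Of 12 subunit genes of RNA polymerase II 11 were on, from 38.4 ± 3.79 TPM for POLR2I to 404 ± 4.95 TPM for POLR2L, with the catalytic subunit POLR2A at 239, 205 and 208 TPM. POLR2F, the exception, had 1 count in all. Of 132 genes from 7 families that dividing cells need, chosen after their values were seen, POLR2F was the only one not on, so a count near 0 in this table need not be an absence of the message. Of 17 kinases, cyclins and cofactors 16 were on. CDK7, the kinase of TFIIH, CDK9, that of P-TEFb, and CDK12 had 133 ± 11.5, 99.4 ± 5.86 and 57.8 ± 2.87 TPM, and BRD2, a reader of acetylated histones, 214 ± 6.43 TPM. CDK11A was low at 13, 4 and 11 counts beside 75.2 ± 4.10 TPM for its near-identical copy CDK11B, and their reads may have been split.

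All 30 colorectal cancer and mismatch repair genes were on, against 59.7% of all protein-coding symbols. CTNNB1 (beta-catenin) had 190.2 ± 4.74 TPM, or 323 ± 8.17 TPM by its longest transcript, PIK3CA 13.4 ± 0.276 TPM, TGFBR2 44.5 ± 4.09 TPM and APC 23.9 ± 1.85 TPM. CDKN1A, the p21 inhibitor of the cell cycle, had 214 ± 1.92 TPM. The mismatch repair gene MSH6 had 67.3 ± 1.06 TPM.

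Early response genes were on in 21 of 23 cases (91.3%, against 59.7% of all protein-coding symbols), low ones being EGR2 and EGR4. FOSL1, an AP-1 subunit, had 394 ± 12.4 TPM, JUND 219 ± 19.8 TPM and EGR1 132 ± 12.9 TPM, whereas FOS had 8.30 ± 0.704 TPM and FOSB 2.07 ± 0.308 TPM. DUSP5 and DUSP6, phosphatases of ERK, had 273 ± 9.86 and 130.3 ± 4.78 TPM. ATF3, a stress factor, varied with 24.9, 27.7 and 19.2 TPM.

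In several families of isozymes a single member dominated. ALDOA, an aldolase of glycolysis, had 1280.3 ± 84.0 TPM. PKM had 1256 ± 63.7 TPM, or 2487 ± 124 TPM by its longest transcript, and the liver pyruvate kinase PKLR no count. LDHB exceeded LDHA 2.17- to 2.22-fold, at 1006 ± 14.4 TPM for the latter, and 1.64- to 1.67-fold with the longest transcript as the length, at 1802 ± 24.2 TPM for LDHA. The glucose transporter SLC2A1 had 273 ± 13.9 TPM against 8.29 ± 0.605 TPM for SLC2A3 and no count for the liver form SLC2A2. Both HK2 and HK1, the hexokinases, were on at 101 ± 6.21 and 70.8 ± 2.90 TPM. Among D cyclins CCND2 had no count and CCND3 44.8 ± 0.651 TPM, or 75.7 ± 1.03 TPM by its longest transcript.

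Of 22 cancer-testis antigen genes, normally restricted to germ cells, 3 were on (13.6%, against 59.7% of all protein-coding symbols). MAGEB2 had 506, 525 and 505 TPM, MAGEA3 317, 309 and 328 TPM and PRAME 50.5, 52.5 and 51.7 TPM. MAGEA6, a near-identical copy of MAGEA3, had 5, 3 and 2 counts, so the 2 may not have been separated by the counting. Another 15 of the 22 had no count.

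Of 24 well-known long noncoding RNAs 16 were on (66.7%), against 7.43% of all long noncoding RNAs. Over all long noncoding RNAs, LRRC75A-AS1, a host of small nucleolar RNAs, had the most counts at 688, 701 and 694 CPM, followed by NORAD, which binds Pumilio proteins, at 319, 295 and 283 CPM. SNHG16, SNHG1 and GAS5, also hosts of small nucleolar RNAs, had 194 ± 16.5, 156 ± 6.83 and 130.1 ± 5.67 CPM. UCA1, known from bladder and other carcinomas, had 82.2 ± 7.73 TPM. The nuclear RNAs MALAT1 and NEAT1 had 11.4, 6.39 and 5.95 TPM and 7.57, 5.67 and 4.91 TPM, and both were highest in replicate 1. MEG3 and CASC15 had no count.

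The replicates lay close together for most genes. Among the 9344 genes of any type that averaged 10 CPM or more, the median coefficient of variation (CV) of CPM was 5.13%, and 86.1% of them were under 10%. Counting alone gives a median of 4.91% at these depths, though an SD taken from 3 values more often falls below its true size than above it. The common biological coefficient of variation, the part beyond counting, was 4.42%. It was 2.32% without replicate 1, 5.16% without replicate 2 and 5.08% without replicate 3. In pairs, the squared deviation per degree of freedom, which is 1 for counting noise, was 2.83 for replicates 1 and 2, 3.03 for 1 and 3 and 1.38 for 2 and 3. Over 3 replicates it grew with level, from 1.195 at 1 to 10 CPM to 8.63 at 200 to 1000 CPM and 44.7 above. Over replicates 2 and 3 alone it was 1.08, 2.34 and 9.43 in the same bins. The median CV over 3 replicates was 16.6%, 3.16% and 3.24% in these bins, so the relative spread was widest at the low level.

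Replicate 1 stood apart by transcript length. For 198 genes with a longest transcript over 12000 bases, the median log2 ratio of replicate 1 to the mean of the others was 0.23, and 82.8% of them were above 0. It was 0.09 for 703 genes of 8000 to 12000 bases and -0.05 for 1807 genes of 2000 to 3000 bases. The 28 genes at least 1.5-fold higher in replicate 1 had a median longest transcript of 15832.5 bases, the 6 at least 1.5-fold lower one of 1288.5 bases, and all 9309 genes with a known length one of 3882.0 bases.

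The 10 genes most variable for their counts included 8 with transcripts over 8000 bases. FAT1, a giant cadherin, had 1756, 1001 and 1043 CPM, DYNC1H1, the dynein heavy chain, 737, 403 and 419 CPM, and AHNAK, a giant scaffold protein, 629, 347 and 358 CPM. PRKDC, the DNA repair kinase, HUWE1 and UBR4, ubiquitin ligases, SRRM2, a splicing factor, and MKI67, the proliferation marker, were also highest in replicate 1, with 1.35- to 1.93-fold the mean of the others. The remaining ones, HSP90AB1 and ACTG1, were lowest in it, at 0.874 and 0.881 of that mean. Deviations also went with transcript GC content: across 9309 genes Spearman's rho of a replicate's deviation was -0.22, -0.09 and 0.33 with GC content and 0.28, -0.12 and -0.23 with length, for replicates 1, 2 and 3. These are across genes, which are not independent and share their library, and no cause of the differences was tested. Each deviation is taken from the mean over the 3 replicates, so the rho values of the 3 replicates depend on each other.

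**Figure D5:**
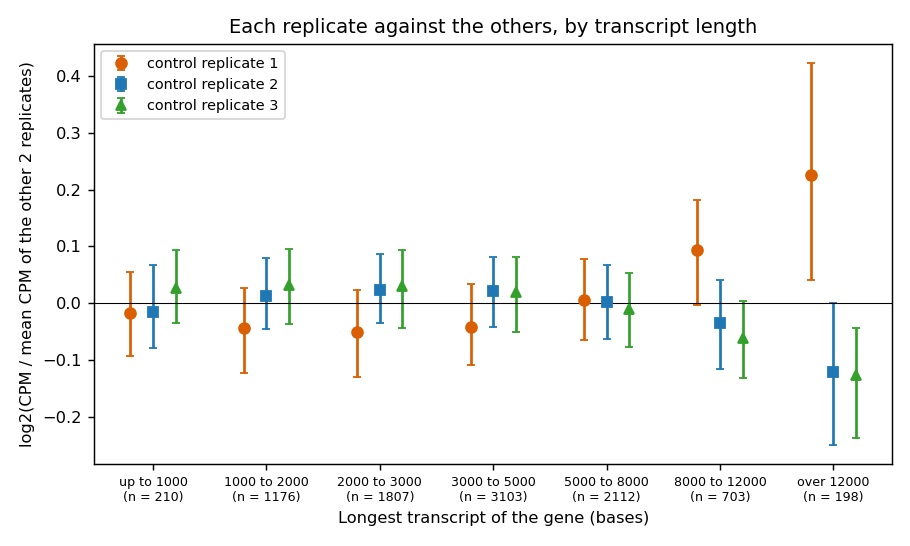
log2 ratio of the CPM of each replicate to the mean CPM of the other 2, for genes that averaged 10 CPM or more, in bins of the longest transcript (number of genes in brackets). Points are medians and bars run from the lower to the upper quartile. Replicate 1 rises to 0.23 above 12000 bases while the other 2 fall below 0. Replicate 1 is part of the mean that each of the other 2 is divided by, so the 3 ratios depend on each other. In that bin the median log2 ratio of replicate 2 to replicate 3 was 0.0007.

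The share of silent genes was high among those whose exons lie almost wholly under exons of other genes, but did not fall steadily with less overlap. Of 110 protein-coding genes with at most 1% of their exon bases free of exons of other genes, 79.1% were silent, and of 148 genes with over 1% and up to 20% free, 62.2%. The share was 34.9% of 387 genes with up to 50% free, 22.6% of 1404 genes with up to 80% free and 18.4% of 6197 genes with over 80% but not quite all of them free. It was higher again, at 38.6%, among the 11011 genes that overlapped none or almost none. Reads that touch several genes are left out by some counting settings, and the setting is not given in the sources used here, so that the part of overlap in these silent calls was not tested.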

How the data were processed

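RNA of HCT116 cells was sequenced after a TruSeq RNA library preparation, per the labels' protocols, a kit that does not mark the strand, so antisense and overlapping genes cannot be told apart. The deposited table held raw read counts per gene symbol, whole numbers with no normalization by the authors. The authors used STAR 2.4, featureCounts (Subread 1.4.6), SAMtools 1.2 and the build GRCh38 (hg38), per the submitters' processing notes. The annotation release, the strand setting and the treatment of reads that touch several genes or places are not given in the sources used here.

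Only the 3 control columns were used. CPM were computed with TMM factors over these libraries in edgeR 4.0.16 (R 4.3.3), with DESeq2 1.42.0 size factors as an alternative. Symbols were matched to GENCODE 29 (GRCh38), 36156 by symbol and 703 by another symbol of RefSeq or its gene names. The unmatched symbols held 0.31% to 0.34% of the counts. TPM divide counts by total exon length, with the longest transcript as an alternative. A gene's own exon share is the percent of its exon bases free of exons of other genes on either strand. The common dispersion, filtered by filterByExpr, gave the biological coefficient of variation, and this step was tested on simulated data. The simulated data held no trend with transcript length or GC content, so that test does not cover such trends. There was no test between groups and no p-value. Intervals are exact Poisson at 95% and, like the limit of 3 counts, cover counting error only. Figures used matplotlib 3.10.9.

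The 22 gene lists (750 genes) were written from textbook knowledge, and members and lists were chosen with earlier results of these data known. Named genes were the 25 with the highest TPM, cytosolic ribosomal protein genes counted apart, the 10 most variable among those of at least 10 CPM, the 5 long noncoding RNAs with most counts, any member of a role of up to 12 genes, and of larger roles the 5 highest, the silent and those passing 1 CPM in some libraries. Also named, after their values were seen, are APC, ATF3, AXIN2, CDH1, CDK11B, CDK12, CLDN4, CSF1, DUSP6, EGR4, ESRP1, FGFR2, FOS, FOSB, GRHL2, GUSB, IL1R1, MALAT1, NEAT1, NOTUM, PIK3CA, RPS12, SOD2, TCF7, TCF7L1, TJP1, TLR3, UCA1, VDR and ZNRF3. Some list members are counted but not reported here by name.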

Additional observations from a re-analysis of the deposited data

How the results depend on the processing

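Of 19257 protein-coding symbols, the number on was from 10981 to 11923 under other scalings, thresholds and left-out replicates, against 11492. The number silent was from 4611 to 6879, against 6023, and 5709 among genes with at least 50% of their exon bases free of other genes, an alternative chosen after seeing the data, as was a threshold of 1 TPM, under which 11466 genes were on. Of the counts of list members on, 174 stayed within 1.5 times under their alternatives. The 2 that did not were those of mature gut genes, with 1 on in place of 2 at 2 CPM and at 1 TPM. The median CV was from 3.51% to 6.62%. The biological coefficient of variation was from 2.32% to 5.16% when each replicate was left out in turn, lowest without replicate 1. With the longest transcript as the length, the differences between paralogs moved by more than their SD, to 30.8 TPM for CDK8 and CDK19, 15.2 TPM for MED12 and MED12L and 27.0 TPM for MED13 and MED13L, each of the same sign. The same change moved 102 of 138 single TPM values by more than their SD, so orders of genes with close levels depend on the length used. Depth limits calls near 1 CPM, where a library held 7 to 9 counts, and 3 replicates give a loose SD. No paired analysis was possible because only the control libraries were used and no groups were compared.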
